A study of Homo sapiens with 3 samples.

Results

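The TRIM genes encode ubiquitin ligases of the tripartite motif family. They were taken as every gene whose current symbol is TRIM followed by a number, with an optional letter, and whose Entrez identifier was listed in at least 1 of the 3 deposited gene tables, without pseudogenes and read-through genes. This gave 55 of 18331 listed genes. The names came from the RefSeq gene table of assembly GRCh38.p14, which has 18 more TRIM genes that were not analysed here. The libraries were made from PC-3, an established line of human prostate cancer cells, 7 days after lentiviral transfection of short hairpin RNA (shRNA). Of these, 2 libraries, numbered 1 and 2, carry the label KMT2D shRNA with the genotype KMT2D deficiency, and 1 carries the label control shRNA with the genotype KMT2D normal. All 3 came from the 1 cell line and the same lentiviral procedure, and the labels say neither whether the 2 KMT2D shRNA libraries used different hairpins nor whether they were separate cultures.

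A TRIM protein carries, from its amino end, a RING finger that recruits an E2 ubiquitin-conjugating enzyme, B-boxes and a coiled coil through which it pairs with other TRIM proteins. The carboxyl end differs between subfamilies and picks the target: a PRY-SPRY domain in most, a PHD finger with a bromodomain in the chromatin-bound members, or NHL repeats in others. Part of the family belongs to the antiviral response. Type I interferon activates transcription factors, STAT2 and IRF9 among them, which bind interferon-stimulated response elements (ISREs) in promoters and switch on genes such as TRIM5, whose protein coats retroviral capsids, TRIM21, a cytosolic antibody receptor, and TRIM25, which ubiquitinates the viral RNA sensor RIG-I. From general knowledge, 10 of the 55 members were set down as interferon-induced (TRIM5, TRIM14, TRIM21, TRIM22, TRIM25, TRIM26, TRIM34, TRIM38, TRIM56 and TRIM69), which left 45 other members. Earlier results of these data were known when this list was made.

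KMT2D, the histone H3 lysine 4 methyltransferase that the hairpins were meant to lower, was read first as a check of the labels. It had 5.53 and 6.93 FPKM (the deposited level, scaled by gene length and library total) in KMT2D shRNA libraries 1 and 2, against 5.02 FPKM in the control. From the read counts its log2 fold change was 0.29, with a standard error (SE) of 0.18 and an edgeR adjusted p = 0.227, so its RNA was not lower in the libraries labelled KMT2D shRNA, and the groups are called by their labels throughout. With the gene-length trend between libraries removed, the value was -0.66 (edgeR adjusted p = 0.0107). With the trends of gene length and GC content both removed, it was -0.49 and did not pass (edgeR adjusted p = 0.0753). The libraries held 5157482 and 5123794 estimated reads with the label KMT2D shRNA, and 5559449 in the control. The epithelial keratin KRT8 was at 104.76 and 121.42 FPKM in the KMT2D shRNA libraries, against 176.29 FPKM in the control, and fell (log2 fold change -0.67, edgeR adjusted p = 0.00169). KRT18, its partner keratin, fell too (-0.88, edgeR adjusted p = 3.84e-05). EPCAM, also read as an epithelial marker, did not pass (-0.45, edgeR adjusted p = 0.127). With the gene-length trend removed, KRT8 did not pass (-0.44, edgeR adjusted p = 0.0705), while KRT18 still fell (-0.565, edgeR adjusted p = 0.0161). The part of these markers in other results was not tested.

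Because the interferon-induced members were grouped by how they are switched on, their promoters were compared first with those of the other members. RefSeq promoter windows, each from 250 bases before a gene's start to 50 bases after it (assembly GRCh38.p14), were available for 42 of the 55 members, including 9 of the interferon-induced members. TRIM22 had no window, so the promoter comparison leaves it out. The core of the ISRE, searched on both strands as GAAA, then any 2 bases, then GAAA, was present in the windows of 6 of the 9 interferon-induced members (66.7%) and of 3 of the 33 other members (9.09%). Over all genes with a window it was present in 1195 of 27305 (4.38%), and over windows in 1255 of 35116 (3.57%). Adjoining copies of the core can overlap, and such copies in 1 window were counted once. The interferon-induced members with a match were TRIM5, TRIM14, TRIM21, TRIM26, TRIM34 and TRIM69, and the others were TRIM2, TRIM16 and TRIM44. TRIM25, TRIM38 and TRIM56 had a window without a match. The interferon gamma activated site known as GAS, searched as TTC, then any 3 bases, then GAA, was found in 0 of the 9 interferon-induced members, against 5 of the 33 other members (15.2%) and 9.38% of all genes. A match describes the letters of these windows and does not show that a factor binds there.

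Windows of 5 members are shown to let the element be compared between genes whose RNA fell (TRIM21, TRIM5, TRIM14, TRIM38) and one whose RNA rose (TRIM44) in the libraries labelled KMT2D shRNA. Each is written 5′ to 3′ on the strand of its gene, in lower case, with the bases of the ISRE core, in either orientation, in capitals. The TRIM21 window (chr11:4393653-4393952, minus strand) holds 2 overlapping copies that begin 18 and 24 bases after the start. The TRIM5 window (chr11:5685025-5685324, minus strand) and the TRIM14 window (chr9:98119173-98119472, minus strand) hold 1 copy each, in the reverse orientation, that begins 27 and 26 bases before the start. The TRIM38 window (chr6:25962552-25962851, plus strand) holds no match. The TRIM44 window (chr11:35662525-35662824, plus strand) holds 1 copy that begins 35 bases before the start.
TRIM21: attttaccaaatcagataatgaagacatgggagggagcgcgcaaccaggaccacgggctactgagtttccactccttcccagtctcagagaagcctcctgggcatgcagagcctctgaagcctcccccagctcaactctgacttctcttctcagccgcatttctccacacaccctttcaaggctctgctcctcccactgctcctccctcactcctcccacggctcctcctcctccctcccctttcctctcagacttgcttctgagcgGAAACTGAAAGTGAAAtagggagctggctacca
TRIM5: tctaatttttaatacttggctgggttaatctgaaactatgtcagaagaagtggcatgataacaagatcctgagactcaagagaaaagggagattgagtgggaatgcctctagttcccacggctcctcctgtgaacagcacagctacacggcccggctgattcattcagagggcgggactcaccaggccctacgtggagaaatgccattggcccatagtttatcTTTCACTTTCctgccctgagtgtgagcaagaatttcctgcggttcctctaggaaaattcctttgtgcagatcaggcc
TRIM14: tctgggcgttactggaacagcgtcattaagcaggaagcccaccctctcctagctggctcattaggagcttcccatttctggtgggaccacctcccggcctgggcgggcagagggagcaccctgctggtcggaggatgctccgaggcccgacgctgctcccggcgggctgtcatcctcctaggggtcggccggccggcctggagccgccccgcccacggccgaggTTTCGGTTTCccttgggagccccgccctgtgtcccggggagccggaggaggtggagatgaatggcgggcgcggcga
TRIM38: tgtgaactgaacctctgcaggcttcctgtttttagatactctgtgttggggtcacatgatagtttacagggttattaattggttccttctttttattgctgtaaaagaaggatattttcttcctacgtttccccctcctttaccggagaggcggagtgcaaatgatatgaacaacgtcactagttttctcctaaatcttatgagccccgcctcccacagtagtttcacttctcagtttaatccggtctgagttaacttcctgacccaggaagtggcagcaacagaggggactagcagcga
TRIM44: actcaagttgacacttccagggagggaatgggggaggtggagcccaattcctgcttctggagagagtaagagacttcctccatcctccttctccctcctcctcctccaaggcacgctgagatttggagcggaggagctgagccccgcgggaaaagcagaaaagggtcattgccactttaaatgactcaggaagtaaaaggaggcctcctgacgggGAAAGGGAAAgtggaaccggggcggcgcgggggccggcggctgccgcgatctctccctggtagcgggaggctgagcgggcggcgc

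Of the 55 members, 41 passed the filter on low counts and were tested, among them all 10 interferon-induced members. The 14 members not tested had at most 10 estimated reads and 0.92 FPKM in any library. Among the tested members, 5 rose and 10 fell in the KMT2D shRNA libraries relative to the control, and 26 did not pass an adjusted p of 0.05. Over all 14016 tested genes, 31.1% were called, 16.5% higher and 14.5% lower, so a call was common in these libraries. Of the 10 interferon-induced members, 7 fell (70.0%) and 0 rose by edgeR. Their log2 fold changes had a median of -1.51, against -0.00604 over all tested genes. At an unadjusted p under 0.05 the counts were also 7 and 0, and DESeq2 and limma each called 6 lower and 0 higher. TRIM22, which fell, and TRIM69, which did not pass, entered the test through the control alone, where they were highest. Because the list was made with earlier results of these data known, its counts are a description and no independent check. Of the 31 other members tested, 5 rose (16.1%) and 3 fell (9.68%), shares near the background, and the median of their log2 fold changes was 0.158. Here, as in any bulk sample, fewer cells that express a gene and less RNA per cell cannot be told apart.

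**Figure D1:**
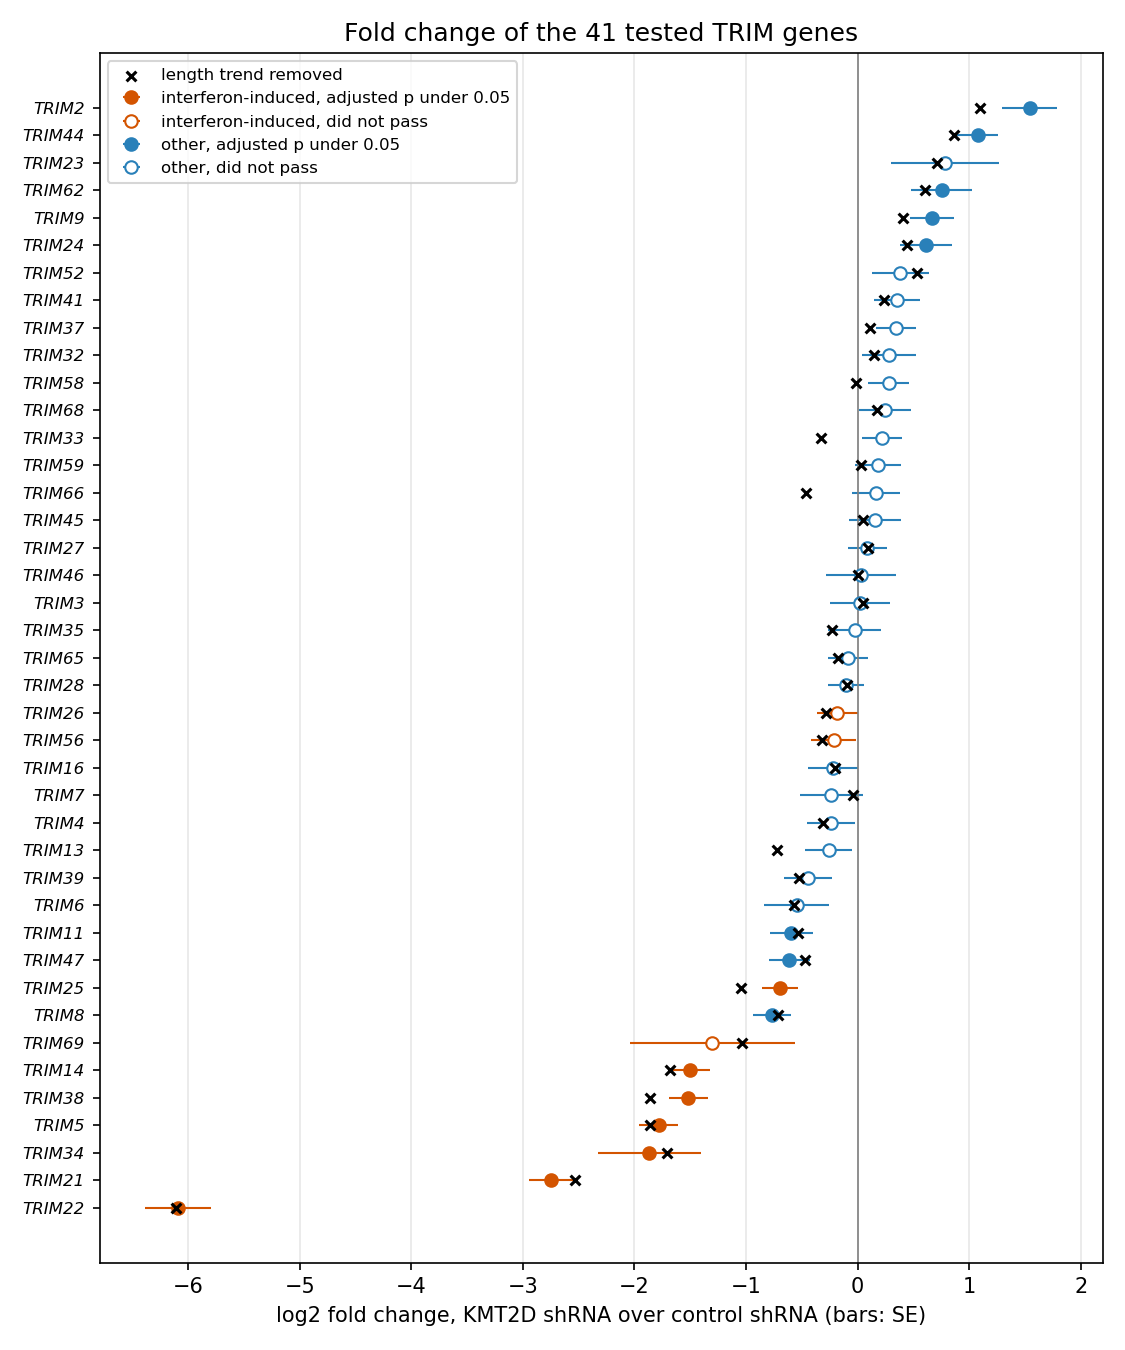
Log2 fold change of the 41 tested TRIM genes, KMT2D shRNA over control shRNA (2 libraries against 1), from edgeR with bars of 1 SE, filled where adjusted p was under 0.05, with crosses for the value after removal of the length trend. Interferon-induced members fill the low end, down to -6.09 for TRIM22, and TRIM2 at 1.54 and TRIM44 at 1.08 are the highest.

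TRIM22, an interferon-inducible restriction factor that represses viral transcription, fell most of all members. It had 4 and 7 estimated reads in KMT2D shRNA libraries 1 and 2, against 410 in the control, or 0.25 and 0.44 FPKM against 23.55 FPKM. In counts scaled to the library total (CPM), it was 97.4-fold lower in library 1 than in the control (95% exact interval 37.8 to 359, for counting error only) and 54.0-fold lower in library 2 (26.0 to 135). Among the 14016 tested genes its log2 fold change was the 15th lowest, at -6.09 (SE 0.29, edgeR adjusted p = 2.63e-22). TRIM22 passed the filter on low counts through the control alone. By FPKM it ranked 45 and 43 of the 55 members in the KMT2D shRNA libraries, against 9 in the control, and its 4 and 7 reads there were near the floor of 3 counts.

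TRIM21 binds antibody-coated virus in the cytosol and sends it to the proteasome. It was at 7.10 and 6.64 FPKM in the KMT2D shRNA libraries, against 45.60 FPKM in the control, and fell (log2 fold change -2.75, SE 0.20, edgeR adjusted p = 7.28e-16). The 2 KMT2D shRNA libraries lay close together and far below the control, and TRIM21 ranked 22 and 24 among the members by FPKM, against 4 in the control. Autoantibodies to this protein, also called Ro52, are known from Sjögren syndrome and lupus.

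TRIM5 recognises the capsid lattice of incoming retroviruses. It stood at 10.53 and 8.60 FPKM in the KMT2D shRNA libraries and at 31.75 FPKM in the control, and it fell too (log2 fold change -1.78, SE 0.18, edgeR adjusted p = 3.37e-11). TRIM34, a relative of TRIM5 that can pair with it on capsids, had only 17 and 7 estimated reads in the KMT2D shRNA libraries, against 47 in the control. It fell with a log2 fold change at -1.87 (SE 0.46, edgeR adjusted p = 0.00151). The interval of its ratio was wide: 2.63-fold lower in library 1 than in the control (1.48 to 4.88) and 6.19-fold lower in library 2 (2.78 to 16.2). The TRIM34 call was lost without the filter on low counts (edgeR adjusted p = 0.0607) and on log2(FPKM + 1) values (limma adjusted p = 0.0816). DESeq2 gave it no adjusted p (unadjusted p = 0.0585), and it was not tested at a mean of 5 CPM or more.

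TRIM5, TRIM34 and TRIM22 lie side by side on chromosome 11 with TRIM6, in the order TRIM5, TRIM6, TRIM34, TRIM22 in RefSeq, where TRIM5's span overlaps those of TRIM6 and TRIM34 and a read-through gene joins TRIM6 to TRIM34. The protocol names no step that keeps strand, so reads of these overlapping genes are uncertain. TRIM6, which makes unanchored ubiquitin chains in interferon signalling, had 2.84 and 3.41 FPKM in the KMT2D shRNA libraries, against 4.98 FPKM in the control, and did not pass (log2 fold change -0.55, edgeR adjusted p = 0.151). TRIM22 and TRIM5 were the cluster members with the most reads in the control, 410 and 609, and both were lower in each KMT2D shRNA library than in the control.

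TRIM38 and TRIM14 fell by nearly the same amount. TRIM38, which limits Toll-like receptor and interferon signalling, was at 7.64 and 6.83 FPKM in the KMT2D shRNA libraries and 20.43 FPKM in the control (log2 fold change -1.52, SE 0.17, edgeR adjusted p = 1.4e-09). TRIM14, which lacks a RING finger and acts as an adaptor of the mitochondrial antiviral protein MAVS, was at 12.09 and 15.85 FPKM, against 35.30 FPKM in the control (-1.50, SE 0.17, edgeR adjusted p = 2.13e-09). The windows printed above differ, with an ISRE core in that of TRIM14 and none in that of TRIM38.

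TRIM25 was the most abundant interferon-induced member in every library, second only to TRIM28 in the family. Its level was 43.47 and 43.21 FPKM in the KMT2D shRNA libraries, against 69.24 FPKM in the control, and it fell (log2 fold change -0.70, SE 0.16, edgeR adjusted p = 7.84e-04). Of the 7 called interferon-induced members it had the log2 fold change nearest 0. TRIM25 is 5744 bases long, and after removal of the gene-length trend its log2 fold change was -1.05 (edgeR adjusted p = 3.35e-05).

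Not every interferon-induced member fell. TRIM26 was at 14.93 and 14.80 FPKM in the KMT2D shRNA libraries and 16.64 FPKM in the control (log2 fold change -0.18, edgeR adjusted p = 0.476), although its window holds 2 copies of the ISRE core. TRIM56, which aids the sensing of viral nucleic acids, was at 8.64 and 10.78 FPKM, against 11.11 FPKM in the control (-0.21, edgeR adjusted p = 0.453). TRIM69 had 6 and 6 estimated reads in the KMT2D shRNA libraries and 16 in the control (-1.30, SE 0.74, edgeR adjusted p = 0.183), too few for a firm statement, and passed the filter through the control alone. All 10 interferon-induced members were lower than the control in both KMT2D shRNA libraries, as were 5996 of the 14016 tested genes.

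**Figure D2:**
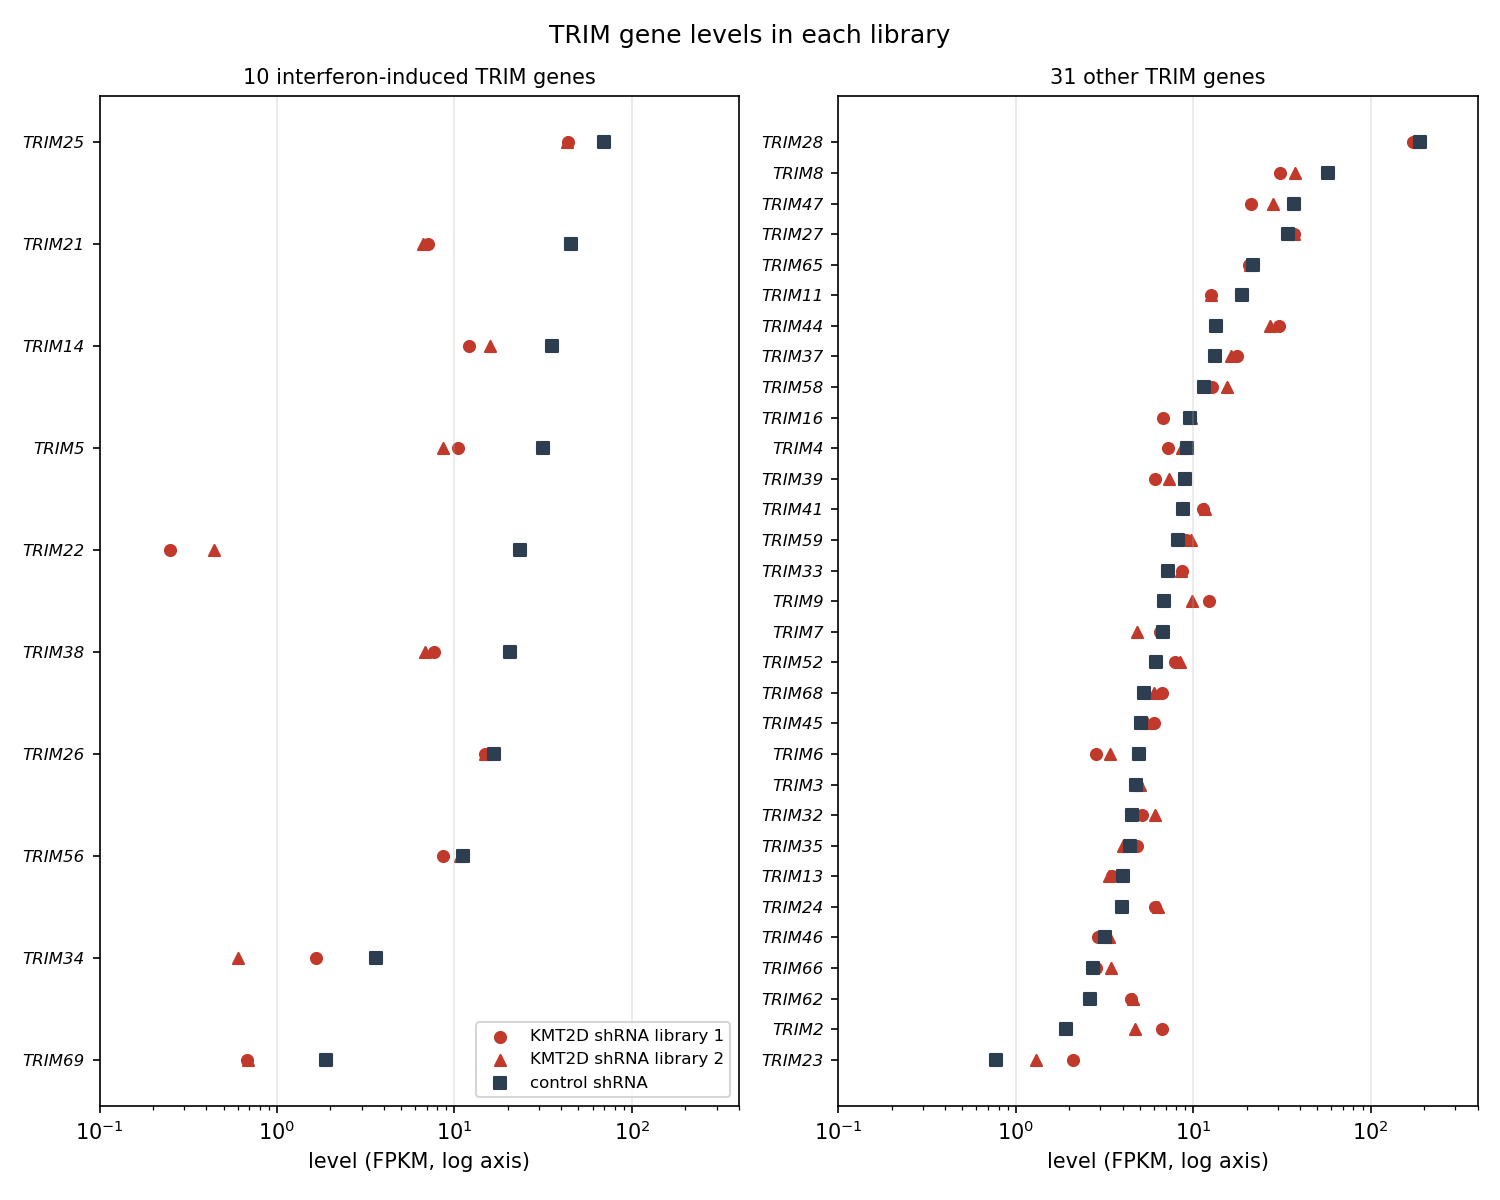
Deposited FPKM (log axis) of the 10 interferon-induced (left) and the 31 other tested TRIM genes (right), with 1 point for each of the 3 libraries. For TRIM22, TRIM21, TRIM5, TRIM38 and TRIM14 both KMT2D shRNA points lie below the control point, farther from it than from each other, while for TRIM2 and TRIM44 both lie above it.

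Summed over members, the interferon-induced part of the family was at 107 and 108 FPKM in the KMT2D shRNA libraries (108 ± 1.03, SD, n = 2), against 259 FPKM in the control. The other members summed to 494 and 520 FPKM (507 ± 18.4, SD, n = 2), against 521 FPKM in the control. The interferon-induced members thus held 17.8% and 17.3% of the family's summed level in the KMT2D shRNA libraries and 33.2% in the control. Without TRIM25, the most abundant of them, they came to 63.5 and 65.2 FPKM in the KMT2D shRNA libraries, against 190 FPKM in the control.

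**Figure D3:**
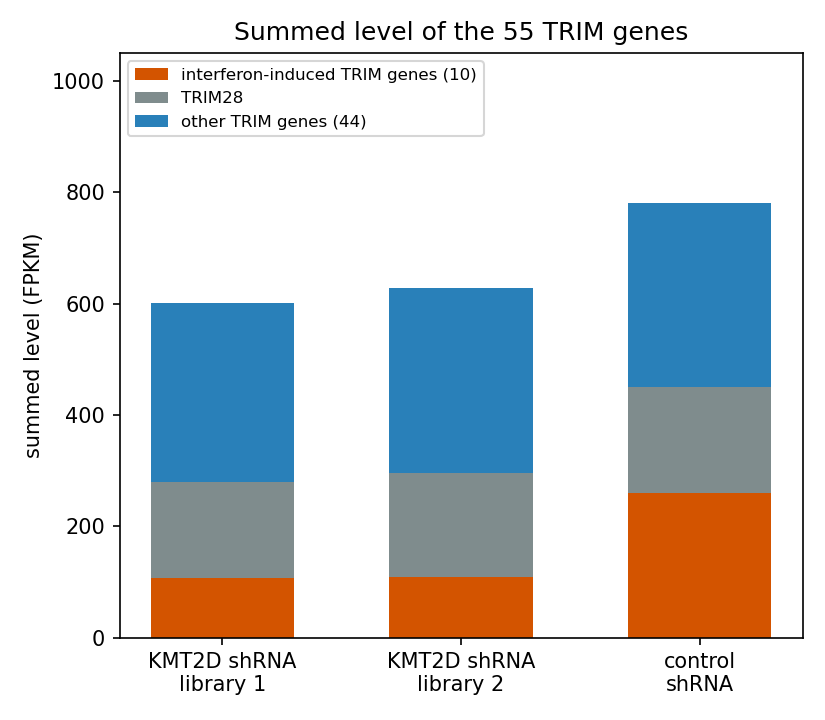
Summed FPKM of the interferon-induced and the other TRIM genes in each library, as bars from 0. The interferon-induced sums are 107 and 108 in the KMT2D shRNA libraries and 259 in the control, while the sums of the other members, TRIM28 included, are 494, 520 and 521.

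Among the other members, TRIM2 and TRIM44 rose most. TRIM2, an NHL-repeat ligase known for its action on the neurofilament light chain in neurons, was at 6.68 and 4.69 FPKM in the KMT2D shRNA libraries, against 1.92 FPKM in the control. The log2 fold change was 1.54 (edgeR adjusted p = 2.76e-06, SE 0.25), a rise, and library 1 was the higher of the KMT2D shRNA libraries. TRIM44, which has no RING finger and carries a zinc finger of the kind found in deubiquitinases, was at 30.55 and 27.04 FPKM, against 13.43 FPKM in the control, and rose as well (log2 fold change 1.08, edgeR adjusted p = 1.13e-05, SE 0.19). By FPKM it ranked 5 and 6 in the family in the KMT2D shRNA libraries and 14 in the control. Both have an ISRE core match in a promoter window.

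TRIM62, TRIM9 and TRIM24 rose less. TRIM62, a ligase involved in epithelial polarity, was at 4.44 and 4.57 FPKM in the KMT2D shRNA libraries and 2.63 FPKM in the control (log2 fold change 0.75, edgeR adjusted p = 0.0309). TRIM9, a ligase of axon guidance in neurons, was at 12.28 and 9.87 FPKM, against 6.86 FPKM in the control (0.67, edgeR adjusted p = 0.00825). TRIM24, a chromatin reader and transcriptional coregulator, was at 6.06 and 6.31 FPKM, against 3.99 FPKM in the control (0.61, edgeR adjusted p = 0.039). In all 3 genes both KMT2D shRNA libraries lay above the control, but of the 8 alternatives with a test, the calls were lost in 7 for TRIM62, 5 for TRIM9 and 7 for TRIM24.

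TRIM8, TRIM47 and TRIM11 fell. TRIM8, which binds the cytokine signalling suppressor SOCS1, had 441 and 527 estimated reads in the KMT2D shRNA libraries, against 882 in the control (log2 fold change -0.77, SE 0.17, edgeR adjusted p = 5.26e-04). TRIM47 was at 21.05 and 28.08 FPKM, against 37.04 FPKM in the control (-0.61, edgeR adjusted p = 0.00861). TRIM11 was at 12.55 and 12.63 FPKM, against 18.73 FPKM in the control (-0.59, edgeR adjusted p = 0.0153). Of the 8 alternatives with a test, the calls were lost in 1 for TRIM8 (limma adjusted p = 0.053), 6 for TRIM47 and 5 for TRIM11. The remaining 23 tested members ranged from -0.55 to 0.78 in log2 fold change, and the smallest adjusted p among them was 0.11.

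Fold changes followed gene length in these libraries, and the calls of the other members did so too. Spearman's rho between log2 fold change and length was 0.467 over all tested genes. It was 0.52 over the 31 other TRIM genes and 0.455 over the 10 interferon-induced ones. These values are a description across genes of the same 3 libraries. Among the other members, the shortest of the 5 that rose was 3865 bases long, while the longest of the 3 that fell was 2753 bases. With the length trend removed, 17.7% of all tested genes were called, 8.63% higher and 9.04% lower. Of the other members 2 then rose, TRIM2 (log2 fold change 1.10, edgeR adjusted p = 0.00251) and TRIM44 (0.87, edgeR adjusted p = 0.0013), and their median was 0.00253. TRIM62, TRIM9, TRIM24, TRIM47 and TRIM11 no longer passed, with edgeR adjusted p of 0.128, 0.161, 0.186, 0.0831 and 0.0506. TRIM8 still fell (-0.72), and TRIM13, a ligase of the endoplasmic reticulum membrane, now fell as well (-0.72, edgeR adjusted p = 0.0173). Of the interferon-induced members 7 fell again, and the median of their log2 fold changes was -1.70.

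**Figure D4:**
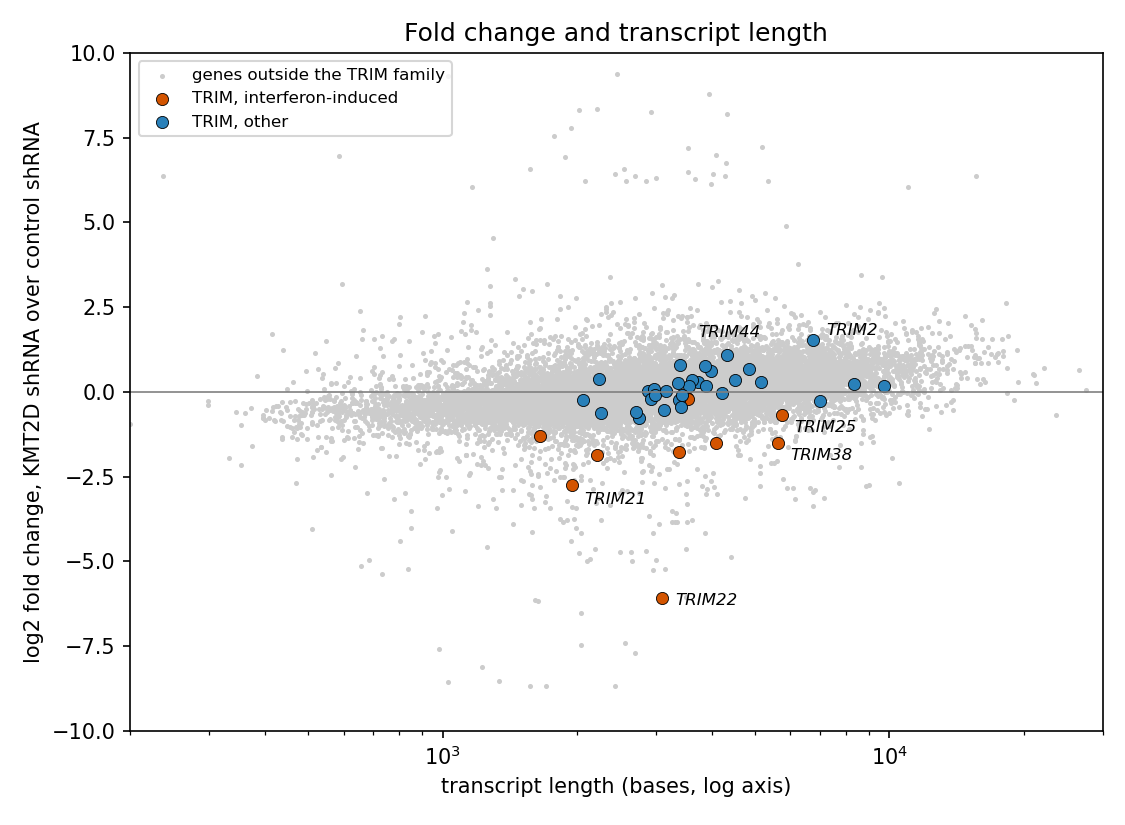
Log2 fold change, KMT2D shRNA over control shRNA, against gene length in bases (log axis) for all tested genes, with interferon-induced and other TRIM genes marked. The other members follow the rise of the grey cloud with length, and the 7 interferon-induced members that fell lie below the 0 line at short and long lengths alike, TRIM22 at -6.09.

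The chromatin-bound subfamily has a PHD finger and a bromodomain, and 1 of its 4 tested members rose (TRIM24) while 0 fell. Over all tested genes, 16.5% were called higher and 14.5% lower, so a count of 1 in 4 is too small to set apart. TRIM28, the corepressor that KRAB zinc finger proteins bring to retroelements, was the most abundant member in every library. It was at 173.39 and 186.83 FPKM in the KMT2D shRNA libraries, against 190.35 FPKM in the control (log2 fold change -0.10, SE 0.16, edgeR adjusted p = 0.678), and held 28.8% and 29.7% of the family's summed FPKM, against 24.4% in the control. TRIM33, a ligase of SMAD4 signalling, was at 8.65 and 8.51 FPKM, against 7.25 FPKM in the control (0.22, edgeR adjusted p = 0.371). TRIM66 was at 2.83 and 3.42 FPKM, against 2.74 FPKM in the control (0.17, edgeR adjusted p = 0.597). After removal of the length trend, 0 of the 4 passed by edgeR, and 1 was lower at an unadjusted p under 0.05. DESeq2 and limma called 0 of the 4.

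In the NHL-repeat subfamily, TRIM2 rose and the other tested members did not pass. TRIM3 was at 4.82 and 5.03 FPKM in the KMT2D shRNA libraries and 4.74 FPKM in the control (log2 fold change 0.02, edgeR adjusted p = 0.968). TRIM32, mutated in a limb-girdle muscular dystrophy, was at 5.12 and 6.09 FPKM, against 4.54 FPKM in the control (0.28, edgeR adjusted p = 0.392). TRIM71, a stem cell protein and a target of the let-7 microRNA, had 1 and 3 estimated reads, against 1 in the control, and was not tested.

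RING fingers recruit E2 enzymes, which E1 enzymes load with ubiquitin. Of 17 tested E1 and E2 genes, 0 rose and 1 fell by edgeR, where 16.5% of all tested genes were called higher and 14.5% lower. The counts were the same at an unadjusted p under 0.05, by DESeq2 and by limma, and their median was -0.0652 on the log2 scale. After removal of the length trend, 2 fell, UBE2W being the second (-0.50, edgeR adjusted p = 0.0399), and 4 were lower at an unadjusted p under 0.05. Of all tested genes, 9.04% were called lower after that step. The 1 that fell was UBE2L6, the E2 of the ubiquitin-like protein ISG15 and itself interferon-induced, at 41.05 and 42.02 FPKM in the KMT2D shRNA libraries, against 370.0 FPKM in the control (log2 fold change -3.16, SE 0.17, edgeR adjusted p = 9.43e-21). Among 14 tested genes around TRIM25 in RIG-I and MAVS signalling, 2 rose and 6 fell (median -0.354), beside 16.5% higher and 14.5% lower over all tested genes. Those with the lowest log2 fold changes were IFIH1 (MDA5, a viral RNA sensor) at -3.77, IRF7 at -3.43, RIGI at -3.13 and the antiviral zinc finger gene ZC3HAV1 at -1.63. The 2 that rose, MAVS at 0.70 and TRAF3 at 0.64, did not pass after removal of the length trend (edgeR adjusted p = 0.935 and 0.688). After that step 0 of the 14 rose and 7 fell, beside 8.63% higher and 9.04% lower over all tested genes.

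Factors that carry the interferon signal to ISRE-bearing promoters were read next. Of 8 tested, 1 rose and 4 fell, beside 16.5% higher and 14.5% lower over all tested genes. The rest did not pass, with log2 fold changes from 0.20 to 0.45. STAT2 was at 25.06 and 23.42 FPKM in the KMT2D shRNA libraries, against 86.57 FPKM in the control, and fell (log2 fold change -1.86, edgeR adjusted p = 5.85e-13). IRF9, its partner at the ISRE, was at 22.86 and 18.04 FPKM, against 64.49 FPKM in the control (-1.68, edgeR adjusted p = 2e-10). IRF1, an interferon-induced activator, was at 11.05 and 14.26 FPKM, against 41.99 FPKM in the control (-1.75, edgeR adjusted p = 3.88e-11). In these 3 genes both KMT2D shRNA libraries lay below the control. JAK1, a kinase of the interferon receptors, rose (0.63, edgeR adjusted p = 0.00534) but did not pass after removal of the length trend (0.174).

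Tripartite motif genes that do not carry a TRIM symbol were read beside the family. Of 4 tested, 2 rose and 1 fell, where 16.5% of all tested genes were called higher and 14.5% lower. PML, the organiser of nuclear bodies and an interferon-induced gene, was at 17.83 and 24.72 FPKM in the KMT2D shRNA libraries, against 81.53 FPKM in the control, and fell (log2 fold change -1.89, SE 0.17, edgeR adjusted p = 2.8e-12). MID1 and MID2, microtubule-bound ligases, had log2 fold changes of 0.68 and 0.58 (edgeR adjusted p = 0.016 and 0.032), which did not pass after removal of the length trend (0.407 and 0.79). Of 14 tested partners of TRIM28 in heterochromatin, 5 rose and 1 fell, beside 16.5% higher and 14.5% lower over all tested genes. After removal of the length trend, 1 rose and 1 fell. ATF7IP, a cofactor of the methyltransferase SETDB1, rose (log2 fold change 1.30) and was the 1 partner that still rose then, while MPHOSPH8, a reader of methylated histone H3, was the 1 that fell (-0.61, edgeR adjusted p = 0.0136). CBX5, CHD3 and TASOR had log2 fold changes of 1.05, 0.65 and 0.65. The partner that fell without that step, SUMO2, was at 134.23 and 346.42 FPKM in the KMT2D shRNA libraries, against 358.51 FPKM in the control, so its value rested on library 1.

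Markers of other cell types were read because leukocytes also express many of the interferon-induced members. Among the leukocyte markers, CD3E was at 0 in every library, and the list summed to 41.3 and 44.1 FPKM in the KMT2D shRNA libraries, against 102 FPKM in the control. That sum was mostly CD68, at 25.16 and 29.65 FPKM, against 79.17 FPKM in the control, which fell (log2 fold change -1.56, edgeR adjusted p = 6e-10). LYZ, the gene of lysozyme, was at 15.2 and 12.96 FPKM, against 21.59 FPKM in the control, and fell as well (-0.64, edgeR adjusted p = 0.0189). After removal of the length trend, LYZ did not pass (-0.33, edgeR adjusted p = 0.29), while CD68 still fell (-1.33, edgeR adjusted p = 2.73e-06). PTPRC, the pan-leukocyte marker CD45, was at 0.93 and 1.47 FPKM, against 0.77 FPKM in the control, and so was not higher in the control. Its counts were low, at 1.34 and 2.17 CPM against 1.27 CPM in the control, and it did not pass (0.45, edgeR adjusted p = 0.727). The part of these markers in the values of the TRIM genes was not tested. The 5 fibroblast markers summed to 64.1 and 64.1 FPKM in the KMT2D shRNA libraries and 66.2 FPKM in the control, and the 3 endothelial markers to 2.83 and 2.73 FPKM, against 2.9 FPKM in the control. Nearly all of the fibroblast sum was COL1A1, at 63.18 and 63.72 FPKM, against 65.55 FPKM in the control. COL1A2, DCN, LUM and PDGFRB were at 0.30 FPKM or less in every library. PECAM1 alone made up the endothelial sum, with CDH5 and VWF at 0 in every library.

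The share of all genes called moved with the method, and the members' counts are read against it. In each of the following alternatives, 6 or 7 interferon-induced members fell and 0 rose, of 10 tested, or of 8 at a mean of 5 CPM or more. With DESeq2 size factors in edgeR, 16.8% of all genes were called higher and 14.1% lower, and with library totals in edgeR, 13.2% and 9.96%. Without the filter on low counts these shares were 5.74% and 4.65%, and at a mean of 5 CPM or more 16.5% and 14.1%. They were 6.3% and 6.38% with the length and GC trends removed, 5.32% and 3.25% by DESeq2, and 5.57% and 6.01% by limma on log2(FPKM + 1). DESeq2 gave TRIM34 and TRIM69 no adjusted p, so these could not be called by it. Its shares are of all 14016 genes, those without an adjusted p included. The test has 1 residual degree of freedom, and its spread comes from the 2 KMT2D shRNA libraries because the control has no replicate.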

How the data were processed

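RNA of PC-3 cells in 3 libraries was analysed, 2 labelled KMT2D shRNA and 1 control shRNA. Messenger RNA was captured on oligo(dT), fragmented and copied with random primers, per the labels' protocols. hg19, HISAT and Bowtie2 were used, per the submitters' processing notes, and which did what, in which version, is not given in the sources used here. The authors deposited 1 table per library with an expected count and an FPKM value per gene, per the file headers, next to the gene length in bases that the authors deposited. A gene not listed for a library was taken as 0. Here the tables were joined on Entrez identifiers, 99.5% of which were named through RefSeq.

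Expected counts were rounded and tested across all genes with edgeR 4.0.16 in R 4.3.3 (filterByExpr with a minimum count of 10, TMM, quasi-likelihood test, Benjamini-Hochberg adjustment over 14016 genes, threshold 0.05). The biological coefficient of variation was 10.9%. FPKM values give levels. The floor of 3 counts was 0.573 and 0.591 CPM in the KMT2D shRNA libraries and 0.545 CPM in the control. Intervals and floors cover counting error only. The p-values measure the spread between these libraries, which may be technical. Length and GC trends were removed as loess offsets (span 0.3); GC was known for 98.8% of tested genes. DESeq2 1.42.0 and limma 3.58.1 (log2 of FPKM plus 1) were alternatives. The test script was run on simulated counts with known changes, whose results are not quoted.

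Named genes were KMT2D, every interferon-induced member, other members past the threshold, the PHD-bromodomain and NHL members, and up to 4 called members of each partner list by size of change. TRIM6, TRIM13, MAVS, TRAF3, JAK1, SUMO2, UBE2W, MPHOSPH8 and the markers were named after their values were seen. The members and lists were chosen with earlier results of these data known. Some genes of the lists are not reported here.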

Additional observations from a re-analysis of the deposited data

How the results depend on the processing

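The count of interferon-induced members that fell stayed at 6 or 7 under all alternatives that had a test, and their median log2 fold change, -1.51, was -1.70 with the length trend removed, -1.71 with the length and GC trends removed, -1.23 by limma on log2(FPKM + 1), -1.45 to -1.37 with either KMT2D shRNA library left out, -1.40 with a broader list and -1.78 with a narrower one. The narrower list left out TRIM26, TRIM56 and TRIM69, the members that had not passed, so all 7 that it kept fell. Its lower median followed from that choice and is no separate check. The count of other members that rose, 5, was less stable: 3 with library totals and with a mean of 5 CPM or more, and 2 without the filter, with the length trend removed, with the length and GC trends removed, by DESeq2 and by limma. The count of other members that fell, 3, was 1 without the filter and by DESeq2, and 0 by limma on log2(FPKM + 1), where 4 were lower at an unadjusted p under 0.05. Their median of 0.158 was 0.113 at a mean of 5 CPM or more, 0.00253 with the length trend removed, 0.0752 with the length and GC trends removed, 0.0856 to 0.115 with either KMT2D shRNA library left out and 0.0567 with the narrower interferon-induced list. KMT2D reversed to -0.66 with the length trend removed. It was -0.49 with the length and GC trends removed, where it did not pass (edgeR adjusted p = 0.0753). Apart from the fewer genes tested under the stricter filter, the causes were not tested. With either KMT2D shRNA library left out, 1 library faced 1 and no test was made. No paired analysis was possible because the control carries no replicate number. Depth limits TRIM34, TRIM69 and the 14 members not tested.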

Other observations

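The 14 members not tested were at the edge of detection in these cells. TRIM61 had 8 and 2 estimated reads in the KMT2D shRNA libraries, against 1 in the control, and TRIM72, a membrane repair protein of muscle, had 4 and 5, against 10 in the control. TRIM31 had 3 and 2 estimated reads, against 6 in the control. TRIM73 and TRIM74 are near-identical copies whose reads cannot be told apart: TRIM73 was at 0 in both KMT2D shRNA libraries and at 4 in the control, and TRIM74 had 5 and 6 estimated reads, against 4 in the control. These 5 were named after their values were seen, and no comparison is drawn from them. The 2 KMT2D shRNA libraries differed from each other by a median of 0.142 on the log2 scale over the tested members, against 0.184 over all tested genes.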
